A study of Mus musculus with 8 samples.

Results

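The interferon-stimulated antiviral genes are a set of 51 genes, taken by gene symbol from the 53735 genes in the raw count tables of bone marrow derived macrophages (BMDMs). Each of the 51 symbols was found in the table of both experiments. All 51 were also among the 14418 genes with enough counts to be tested. They were sorted by role into 9 groups, which are described in turn: IFIT proteins, ISG15 conjugation and ADP-ribosylation, nucleic acid sensors and RNA editing, oligoadenylate synthetases, inhibitors of viral entry, replication and release, interferon-inducible GTPases, the transcription factor Irf7, chemokines, and other interferon-stimulated genes.

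Interferons are secreted proteins that cells release when they sense viral or other foreign nucleic acid. Type I interferon signals through its receptor and the kinases Jak1 and Tyk2 to a complex that contains Stat2 and Irf9 and binds the interferon-stimulated response element (ISRE) in promoters. Type II interferon (interferon gamma) acts through Jak1 and Jak2 on another element, the gamma-activated site (GAS). Macrophages both make type I interferon and respond to either type, and the genes they switch on block viruses at entry, replication, translation and release.

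The 8 libraries came from BMDMs of male mice, 6 months old, that had all received angiotensin II (Ang II) from osmotic minipumps for 7 days. The labels give the dose both as 1 mg/kg/min and as 1.44 mg/kg/day, which disagree. Marrow cells were then differentiated in culture for 7 days before RNA was taken. WT denotes Mkl1+/+, Apoe-/- and KO denotes Mkl1-/-, Apoe-/-, so Apoe was absent from every group, and every group had Ang II. Mkl1 encodes a coactivator of serum response factor, and the genotype names a deletion carried by the whole animal, donor marrow and cultured cells alike. The libraries fell into 2 experiments, which the submitters called batches and compared separately. Experiment 1 held WT libraries 1 and 2 and KO libraries 5 and 6, and experiment 2 held WT libraries 3 and 4 and KO libraries 7 and 8. The labels number the libraries but do not tie each to a mouse, so p-values measure the spread between these libraries, which may be technical.

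Library totals lay between 33977799 and 41584540 counts. Levels are in CPM, the count of a gene scaled to a common library size, which was set by the trimmed mean of M values (TMM) across all 8 libraries. Mkl1 mRNA was at 25.6, 27.1, 26.8 and 29.5 CPM in WT libraries 1 to 4 and at 19.5, 20.9, 14.6 and 10.4 CPM in KO libraries 5 to 8, so each KO library lay below each WT library (two-sided exact permutation test over 70 arrangements, p = 0.0286, the smallest they can give). These arrangements ran across both experiments, and with experiment as an additive term the fall did not pass (log2 fold change -0.78 ± 0.19 SE, adjusted p = 0.0574 in edgeR). Within each experiment the fall of Mkl1 did pass in edgeR. Its log2 fold change was -0.39 ± 0.08 SE in experiment 1 (adjusted p = 0.00381) and -1.17 ± 0.19 SE in experiment 2 (adjusted p = 0.0218). The fall was deeper in experiment 2 (interaction adjusted p = 0.0238 in edgeR). Across all genes, the groups did not fall into line by genotype: with all 8 libraries in 1 fit, KO of experiment 2 differed from WT of experiment 1 in 0.0416% of genes upward and 0.0832% downward, whereas KO and WT of experiment 1 differed in 20.4% and 21.0%. Mkl1 was the only check of the genotype labels, so every difference between WT and KO is given as labelled, and whether any group was mislabelled was not tested. The macrophage markers Adgre1, Csf1r, Cd68 and Lyz2 were at or above 751 CPM in every library, whereas Mertk lay between 19.7 and 104 CPM. Of 10 macrophage markers, 5 were higher and 4 lower in KO of experiment 1, against 27.0% and 28.1% of all genes. KO of experiment 2 had 2 higher and 2 lower, against 7.52% and 8.29% of all genes. Log2 fold changes in experiments 1 and 2 were -2.11 and 0.91 for Adgre1 and 0.82 and -1.28 for Csf1r, all past the threshold. The part of these markers in the results was not tested. The summed level of 10 macrophage markers ran from 27822 to 37360 CPM in WT and from 20741 to 22589 CPM in KO of experiment 1, and from 16738 to 22564 CPM in WT and from 18969 to 27537 CPM in KO of experiment 2. The summed level of 8 fibroblast markers was 178 to 234 CPM in KO of experiment 1 and 2.18 to 12.1 CPM in the other groups. For plasmacytoid dendritic cells, which are strong producers of type I interferon, the defining marker Siglech was at or below 0.0541 CPM and Klk1 at 0. The 5 markers of these cells summed to 109 and 125 CPM in WT and 237 and 211 in KO of experiment 1, and to 106 and 88.5 in WT and 145 and 126 in KO of experiment 2, most of it Tcf4. Of the 3 tested, Tcf4 was higher and Ccr9 and Cox6a2 lower in KO of experiment 1, and Cox6a2 was higher and Ccr9 lower in KO of experiment 2; their part in the results was not tested. T and NK cell markers summed to at most 0.108 CPM, with Cd3e and Gzma at 0.

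Promoters are shown for 9 of the genes on which the results turn. Of the 51 genes, 40 matched the RefSeq promoter table of GRCm38.p6, which holds 250 bases before and 50 after each annotated start. Oas2, Parp14, Parp9, Usp18, Mx2, Dhx58, Tor3a, Zbp1, Rtp4, Ifi204 and Mx1 had no entry. The core of the ISRE, GAAANNGAAA on either strand (TTTCNNTTTC on the strand shown), lay in the window of 23 of the 40 genes (57.5%) and of 3.99% of all genes in the table. The core of the GAS, TTCNNNGAA, which reads the same on both strands, was present in 12 of the 40 (30.0%) and in 9.55% of all genes. The sequences below end at the base before the start, run 5′ to 3′ on the strand of the gene, and have each ISRE core in capitals, with overlapping cores joined in 1 run. Ifit1 and Isg15 are given for their multiple cores, Gbp2, Gbp3 and Gbp5 for the large differences in experiment 2, Irgm1 as a second GTPase family, and Cxcl10, Rsad2 and Bst2 as genes that departed from the rest in experiment 1.
Ifit1, chr19:34640769-34640888, + strand: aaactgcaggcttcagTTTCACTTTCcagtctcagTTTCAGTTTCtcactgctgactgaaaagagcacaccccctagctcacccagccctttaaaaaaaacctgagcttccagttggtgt
Isg15, chr4:156200819-156200938, - strand: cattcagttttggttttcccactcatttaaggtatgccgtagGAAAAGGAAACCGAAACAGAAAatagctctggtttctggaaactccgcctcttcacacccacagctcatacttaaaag
Gbp2, chr3:142620543-142620662, + strand: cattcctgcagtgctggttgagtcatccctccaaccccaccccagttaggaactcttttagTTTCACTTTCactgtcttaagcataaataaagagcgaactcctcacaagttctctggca
Gbp3, chr3:142559924-142560043, + strand: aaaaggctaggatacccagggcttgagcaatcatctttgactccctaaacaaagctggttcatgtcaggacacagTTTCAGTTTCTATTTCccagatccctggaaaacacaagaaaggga
Gbp5, chr3:142496684-142496933, + strand: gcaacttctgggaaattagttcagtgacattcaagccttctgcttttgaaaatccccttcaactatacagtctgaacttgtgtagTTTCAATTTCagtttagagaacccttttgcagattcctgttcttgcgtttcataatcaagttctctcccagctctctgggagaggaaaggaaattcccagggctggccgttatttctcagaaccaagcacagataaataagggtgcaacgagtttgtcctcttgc
Irgm1, chr11:48871421-48871540, - strand: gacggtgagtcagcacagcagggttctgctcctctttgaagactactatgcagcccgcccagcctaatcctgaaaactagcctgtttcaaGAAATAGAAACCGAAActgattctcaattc
Cxcl10, chr5:92348890-92349139, - strand: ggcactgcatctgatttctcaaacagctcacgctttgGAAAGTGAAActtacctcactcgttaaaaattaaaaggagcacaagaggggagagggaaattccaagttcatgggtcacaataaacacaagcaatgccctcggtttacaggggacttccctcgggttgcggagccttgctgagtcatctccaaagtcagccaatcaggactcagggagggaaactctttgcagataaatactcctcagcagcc
Rsad2, chr12:26456453-26456572, - strand: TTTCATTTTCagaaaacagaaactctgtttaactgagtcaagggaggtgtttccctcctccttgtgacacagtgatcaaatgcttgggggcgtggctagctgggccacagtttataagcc
Bst2, chr8:71537473-71537722, - strand: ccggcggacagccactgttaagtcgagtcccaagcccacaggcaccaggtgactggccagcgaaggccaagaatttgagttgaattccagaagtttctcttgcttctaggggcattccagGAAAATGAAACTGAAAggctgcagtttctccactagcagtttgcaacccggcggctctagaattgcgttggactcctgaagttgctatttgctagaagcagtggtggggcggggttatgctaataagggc
Counted from the start, the first core begins at base -104 in Ifit1, -78 in Isg15, -59 in Gbp2, -45 in Gbp3 and -30 in Irgm1, and farther upstream at -120 in Rsad2, -130 in Bst2, -165 in Gbp5 and -213 in Cxcl10. In Bst2 a GAS core starts at base -136 and shares bases with the first ISRE core. A match to these letters is a description of the sequence and not a bound site.

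The main pattern of the 51 genes was a difference between the labelled genotypes of opposite sign in the 2 experiments. In experiment 1, KO was higher than WT for 44 of the 51 genes and lower for 1, Tor3a, at an adjusted p under 0.05 (edgeR quasi-likelihood test, Benjamini-Hochberg adjustment over all genes tested), against 27.0% of all genes tested higher and 28.1% lower. The median log2 fold change of the 51 was 1.15, beside 0.01 over all genes. In experiment 2, KO was lower than WT for 44 of the 51 and higher for none, against 8.29% of all genes lower and 7.52% higher, and the median was -1.79 beside 0.01 over all genes. Both calls, higher in experiment 1 and lower in experiment 2, were made for 39 of the 51 genes and for 3.23% of all genes.

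**Figure D1:**
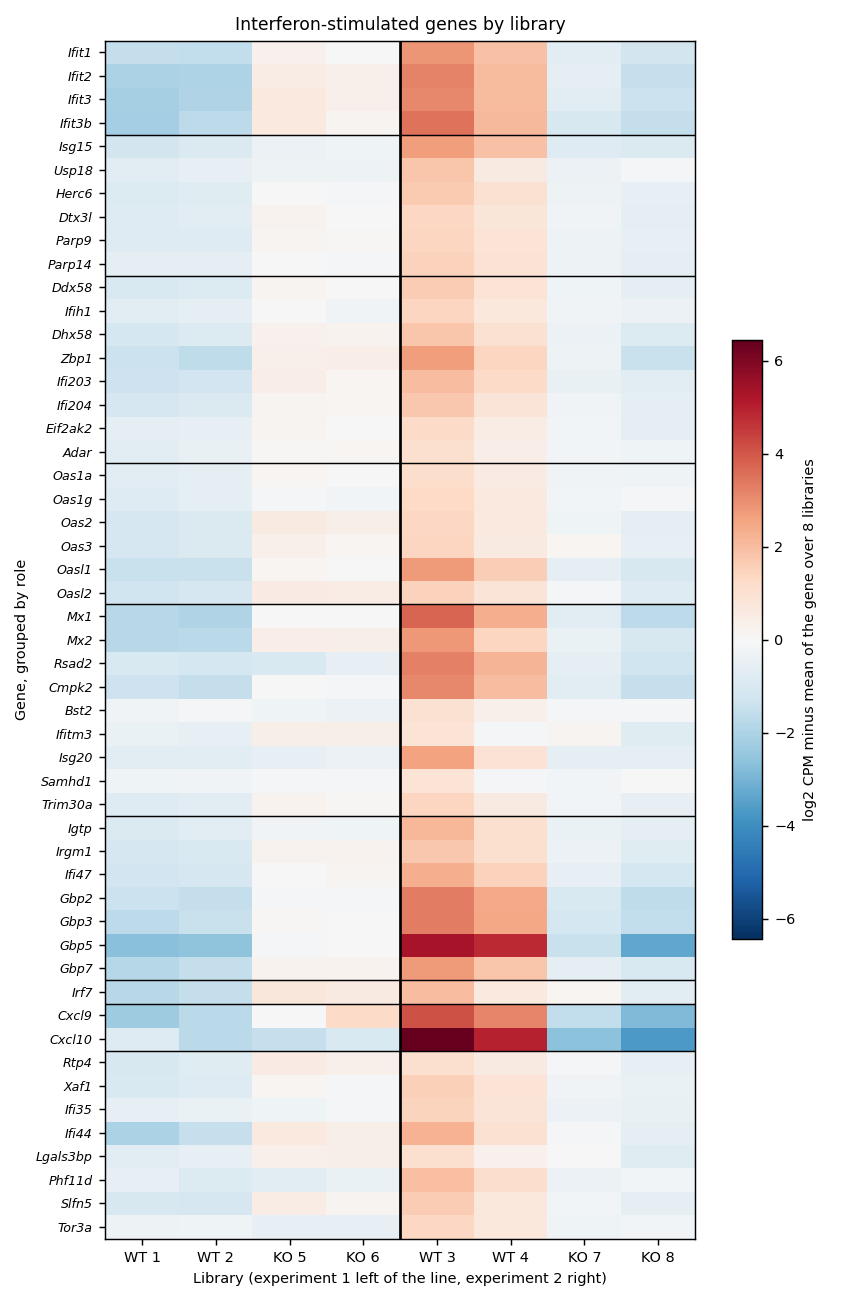
Each row is a gene and each column a library, and the colour gives log2 CPM minus the mean of that gene over the 8 libraries. Lines across separate the 9 role groups in the order of the text. WT libraries 3 and 4 were the highest columns for most rows, WT libraries 1 and 2 were mostly lowest, and the 4 KO libraries mostly lay between.

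In counts without a test, both KO libraries of experiment 1 lay above both WT libraries for 47 of the 51 genes (41.2% of all genes), and both KO libraries of experiment 2 lay below both WT libraries for 49 (32.5% of all genes). The genes without a call in experiment 1 were Rsad2, Bst2, Isg20, Samhd1, Cxcl10 and Phf11d. Those without a call in experiment 2 were Usp18, Oas3, Bst2, Ifitm3, Samhd1, Irf7 and Lgals3bp, with adjusted p between 0.0752 and 0.355, and all 7 had log2 fold changes below 0. Over all genes, fewer were called lower in experiment 2 with any 1 library left out. Without KO library 7, 6 of the 51 genes were called lower (median -2.03) and 3.42% of all genes, and without KO library 8 only 1 was (median -1.69) and 0.763% of all genes. Without WT library 3 the count was 37 (median -1.39), against 3.38% of all genes, and without WT library 4 it was 48 (median -2.24), against 5.78%, and the log2 fold changes of all 51 genes were below 0 with all libraries. In experiment 1, of the calls over all genes, 49.0% were higher with TMM scaling and 59.8% with upper-quartile scaling, under which 46 of the 51 genes were higher and 0 lower. With the spread shared by all 8 libraries, 37 were higher in experiment 1 (20.4% of all genes), the 7 that lost that call being Usp18 (adjusted p = 0.491), Ifi35 (0.252), Igtp (0.175), Ifitm3 (0.0953), Ifih1 (0.0846), Eif2ak2 (0.0575) and Oas1g (0.0520). In experiment 2 the same spread gave 49 lower (16.8% of all genes), with Usp18, Oas3, Bst2, Irf7 and Lgals3bp added. Of the fibroblast markers, 7 of 7 tested were higher in KO of experiment 1, against 27.0% of all genes. In experiment 2 none was called in edgeR, against 8.29% of all genes lower and 7.52% higher, with 1 marker at an unadjusted p under 0.05. All 7 had log2 fold changes below 0 there, with a median of -0.28. The part of these markers in the result was not tested. In bulk RNA, fewer cells of a type and less RNA per cell cannot be told apart.

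**Figure D2:**
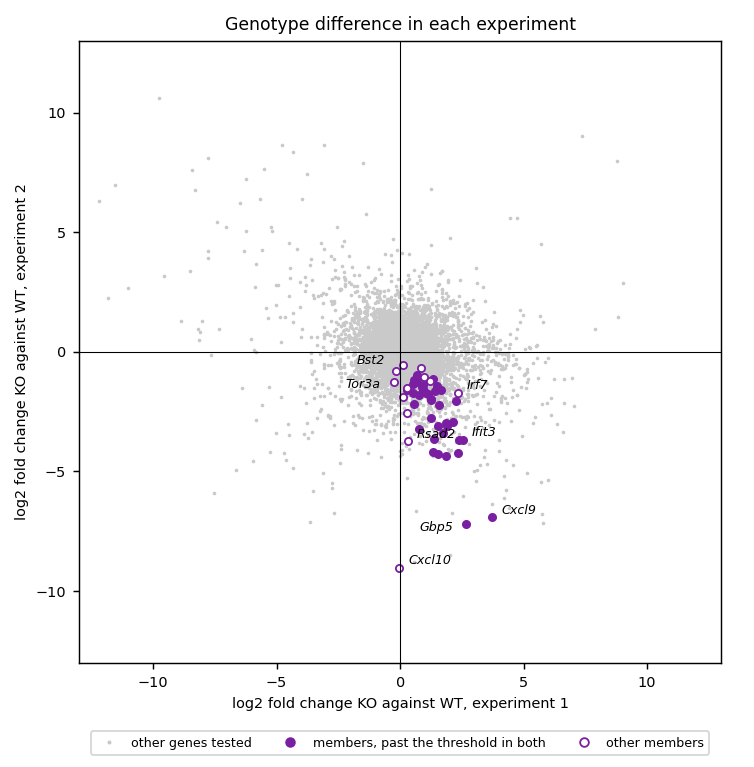
Log2 fold change of KO against WT in experiment 1 (horizontal) and experiment 2 (vertical) for the 14418 genes tested, with the 51 genes in purple and filled where both calls were made, for 39 of them. All 51 lay below 0 in experiment 2, and 48 lay above 0 in experiment 1; the fitted values of Cxcl9 depend on the prior count, because its counts were at the floor in 2 groups.

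The IFIT proteins bind foreign RNA and hold back its translation. All 4 genes were higher in KO of experiment 1 and lower in KO of experiment 2, with median log2 fold changes of 2.36 and -3.68. The genes adjoin each other on chromosome 19 (GRCm38, chr19:34550694-34650009, from Ifit2 to Ifit1). Ifit2, whose product binds RNA as a dimer, was at 56.4 and 58.1 CPM in WT and 322 and 288 in KO of experiment 1, and at 2113 and 927 in WT and 154 and 81.7 in KO of experiment 2. Ifit1, which binds RNA whose cap lacks methylation, was at 41.9 and 40.9 CPM in WT and 150.0 and 125 in KO of experiment 1, and at 886 and 459.8 in WT and 74.5 and 54.3 in KO of experiment 2. Ifit3, the partner that stabilizes Ifit1 on RNA, was at 20.8 and 24.1 CPM in WT and 145 and 115 in KO of experiment 1, and at 798 and 380.3 in WT and 56.9 and 35.7 in KO of experiment 2. In all 3 genes the groups did not overlap within either experiment, both WT libraries of experiment 2 lay above the other 6 libraries, and WT library 3 stood above WT library 4. KO exceeded WT 5.28-fold (log2 fold change 2.40 ± 0.07 SE, adjusted p = 4.74e-07) for Ifit2, 3.29-fold (log2 fold change 1.72 ± 0.09 SE, adjusted p = 1.18e-05) for Ifit1 and 5.75-fold (log2 fold change 2.52 ± 0.14 SE, adjusted p = 6.11e-05) for Ifit3 in experiment 1. In experiment 2, KO was lower by 12.9-fold (log2 fold change -3.69 ± 0.55 SE, adjusted p = 0.0212) for Ifit2, 10.5-fold (log2 fold change -3.39 ± 0.38 SE, adjusted p = 0.0130) for Ifit1 and 12.7-fold (log2 fold change -3.67 ± 0.46 SE, adjusted p = 0.0160) for Ifit3. Ifit3b, a near copy of Ifit3, had log2 fold changes of 2.33 and -4.24. Of the 50-base stretches of Ifit3, 51.2% also occur in Ifit3b, so the division of reads between these 2 genes is uncertain.

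Isg15 is a ubiquitin-like protein that is joined to other proteins, Herc6 joins it and Usp18 removes it. Dtx3l and Parp9 form a complex that marks proteins with ubiquitin and ADP-ribose, and Parp14 transfers single ADP-ribose units. All 6 genes of this group were higher in KO of experiment 1 and 5 were lower in KO of experiment 2, with medians of 0.76 and -1.65. Parp14 was at 468 and 481 CPM in WT and 725 and 666 in KO of experiment 1, and at 2034 and 1386 in WT and 575 and 473 in KO of experiment 2. Dtx3l was at 118 and 127 CPM in WT and 239.6 and 214 in KO of experiment 1, and at 529 and 352 in WT and 175 and 139 in KO of experiment 2. Parp9 was at 99.3 and 100.1 CPM in WT and 199 and 182 in KO of experiment 1, and at 461 and 319.9 in WT and 139 and 119.6 in KO of experiment 2. For these 3 genes the differences in experiment 1 were modest and the replicates close, whereas in experiment 2 both WT libraries stood clear of all others. The folds were 1.45, 1.83 and 1.89 upward in experiment 1 (log2 SE 0.06 to 0.07) and 3.26, 2.80 and 3.02 downward in experiment 2 (log2 SE 0.21 to 0.24). Isg15 rose 1.68-fold (log2 fold change 0.75 ± 0.10 SE, adjusted p = 0.000501) in KO of experiment 1 and fell 9.30-fold (log2 fold change -3.22 ± 0.30 SE, adjusted p = 0.00876) in KO of experiment 2. Herc6 had log2 fold changes of 0.78 and -1.79, both past the threshold. Usp18, which also restrains the type I interferon receptor, passed in experiment 1 (log2 fold change 0.29) and not in experiment 2 (-1.52, adjusted p = 0.0752). Dtx3l and Parp9 lie head to head on opposite strands and their exons overlap (chr16:35926511-35939151 and chr16:35938470-35972605). Whether strand was used in counting is not given in the sources used here, so their shared reads cannot be told apart.

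The sensors detect nucleic acid in the cytosol, and Adar edits adenosine to inosine in double-stranded RNA. All 8 genes were higher in KO of experiment 1 and all 8 lower in KO of experiment 2, with medians of 1.09 and -1.74. Ifi204, of the PYHIN family of DNA sensors, was at 128 and 143 CPM in WT and 312 and 292 in KO of experiment 1, and at 912 and 479 in WT and 230.5 and 178 in KO of experiment 2. Ddx58, which encodes the RNA sensor RIG-I, was at 139 and 146 CPM in WT and 307 and 278 in KO of experiment 1, and at 849 and 494 in WT and 223 and 185 in KO of experiment 2. Eif2ak2 encodes PKR, a kinase that stops translation on double-stranded RNA, and was at 125 and 132 CPM in WT and 213 and 191 in KO of experiment 1, and at 449 and 266 in WT and 167 and 129 in KO of experiment 2. The same order held in each, with WT of experiment 2 highest, KO of experiment 1 next and WT of experiment 1 lowest, and the groups did not overlap within an experiment. In experiment 1 KO was above WT 2.21-fold (log2 fold change 1.15 ± 0.07 SE, adjusted p = 9.79e-06) for Ifi204, 2.04-fold (log2 fold change 1.03 ± 0.07 SE, adjusted p = 1.22e-05) for Ddx58 and 1.56-fold (log2 fold change 0.64 ± 0.07 SE, adjusted p = 0.000142) for Eif2ak2. In experiment 2 KO was below WT 3.40-fold (log2 fold change -1.77 ± 0.35 SE, adjusted p = 0.0340) for Ifi204, 3.30-fold (log2 fold change -1.72 ± 0.29 SE, adjusted p = 0.0249) for Ddx58 and 2.42-fold (log2 fold change -1.27 ± 0.29 SE, adjusted p = 0.0476) for Eif2ak2. The RNA sensor Ifih1 (MDA5) had log2 fold changes of 0.51 and -1.36, and its relative Dhx58 (LGP2) had 1.26 and -2.02. Zbp1, a sensor of Z-form nucleic acid, had the widest swing of the group in both experiments, at 1.85 and -2.95. Ifi203 was at 1.56 and -2.21, and Adar had the smallest difference in experiment 2, at 0.68 and -0.96. Of the 50-base stretches of Ifi204, 14.8% also occur in Ifi211, so its reads may be shared.

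**Figure D3:**
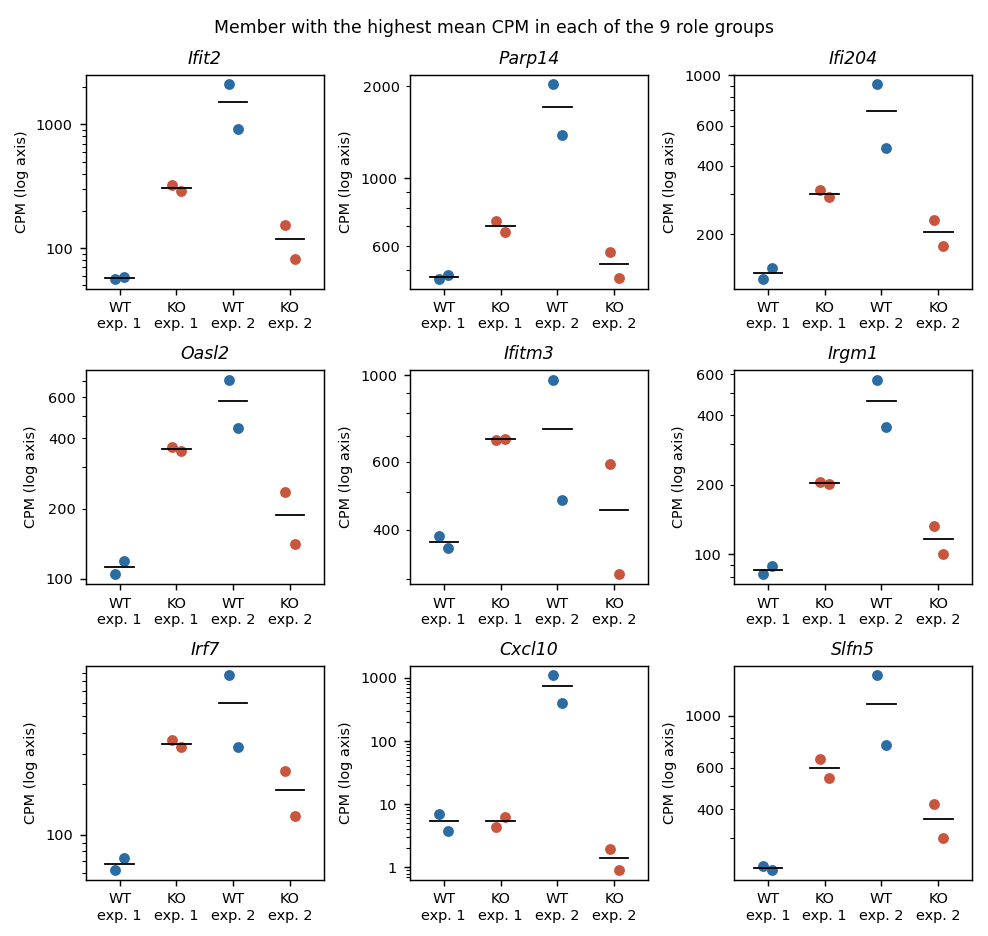
CPM on a log axis in each library (points) and the group mean of 2 libraries (line), for the gene with the highest mean CPM in each of the 9 role groups; blue is WT and red is KO. In experiment 2 the WT points were above the KO points except in Ifitm3, where WT library 4 (478 CPM) lay below KO library 7 (592 CPM).

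Oligoadenylate synthetases make a messenger that activates RNase L, which cuts viral and cellular RNA. All 6 genes were higher in KO of experiment 1 and 5 were lower in KO of experiment 2, with medians of 1.35 and -1.32. Oasl2, an OAS-like protein, was at 105 and 119.5 CPM in WT and 368 and 351 in KO of experiment 1, and at 711 and 442 in WT and 235 and 141 in KO of experiment 2. Oas3 was at 117 and 128 CPM in WT and 305 and 271 in KO of experiment 1, and at 640.4 and 369 in WT and 267 and 173 in KO of experiment 2. Oas2 was at 44.8 and 50.5 CPM in WT and 143 and 126 in KO of experiment 1, and at 238 and 145 in WT and 79.7 and 61.7 in KO of experiment 2. Both KO libraries of experiment 1 lay below WT library 4 in all 3 genes, by little for Oas2, and KO library 7 lay above both WT libraries of experiment 1. The folds in experiment 1 were 3.18, 2.33 and 2.80 for Oasl2, Oas3 and Oas2 (adjusted p 2.51e-06, 1.02e-05 and 1.02e-05). In experiment 2 Oasl2 fell 3.06-fold (log2 fold change -1.62 ± 0.35 SE, adjusted p = 0.0412) and Oas2 fell 2.71-fold (log2 fold change -1.44 ± 0.28 SE, adjusted p = 0.0328), whereas Oas3 did not pass (log2 fold change -1.20 ± 0.34 SE, adjusted p = 0.0796). Oasl1, known in mice to hold back translation of Irf7, had log2 fold changes of 1.51 and -3.09, the widest of the group in experiment 2. Oas1a was at 0.71 and -1.09 and Oas1g at 0.55 and -1.16. These 2 genes are near copies, with 57.6% of the 50-base stretches of Oas1a also in Oas1g, and their separate values are uncertain. Oas2, Oas3, Oas1g and Oas1a form 1 cluster (chr5:120730333-120907521) and Oasl2 and Oasl1 another (chr5:114896936-114937915).

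Of the inhibitors of viral entry, replication and release, 5 of 9 were higher in KO of experiment 1 and 6 of 9 were lower in KO of experiment 2, with medians of 0.86 and -2.57. Ifitm3, which blocks fusion of viruses with endosomes, was at 387 and 359 CPM in WT and 681 and 687 in KO of experiment 1, and at 974 and 478 in WT and 592 and 307 in KO of experiment 2. Rsad2 encodes viperin, which makes a chain-terminating nucleotide, and was at 80.1 and 74.2 CPM in WT and 82.2 and 112 in KO of experiment 1, and at 1535 and 739 in WT and 103 and 66.8 in KO of experiment 2. Trim30a, a ubiquitin ligase of the TRIM family, was at 175 and 193 CPM in WT and 364 and 336 in KO of experiment 1, and at 813 and 471 in WT and 275 and 217 in KO of experiment 2. Bst2 encodes tetherin, which holds budding virions at the cell surface, and was at 151 and 167 CPM in WT and 147 and 138 in KO of experiment 1, and at 352 and 222 in WT and 164 and 163 in KO of experiment 2. The genotypes did not overlap for Rsad2 or Trim30a in either experiment, although KO of Rsad2 was barely above WT in experiment 1. Bst2 was slightly lower in both KO libraries there, and Ifitm3 overlapped in experiment 2. In experiment 1, Ifitm3 rose 1.82-fold (log2 fold change 0.86 ± 0.07 SE, adjusted p = 2.26e-05) and Trim30a 1.89-fold (log2 fold change 0.92 ± 0.07 SE, adjusted p = 2.62e-05), whereas Rsad2 (log2 fold change 0.32 ± 0.16 SE, adjusted p = 0.164) and Bst2 (-0.17 ± 0.07 SE, adjusted p = 0.0666) did not pass. In experiment 2, Rsad2 fell 13.4-fold (log2 fold change -3.74 ± 0.45 SE, adjusted p = 0.0147) and Trim30a 2.61-fold (log2 fold change -1.38 ± 0.30 SE, adjusted p = 0.0412), whereas Ifitm3 (log2 fold change -0.69 ± 0.46 SE, adjusted p = 0.355) and Bst2 (-0.81 ± 0.23 SE, adjusted p = 0.0775) did not. In experiment 1 Rsad2 passed without KO library 5 (log2 fold change 0.52, adjusted p = 0.000265) and Bst2 without WT library 1 (-0.24, adjusted p = 0.0400). With no filter beyond 1 count in total, both passed (0.28, adjusted p = 0.00459, and -0.21, adjusted p = 0.00599).

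Cmpk2, a mitochondrial nucleotide kinase next to Rsad2 on chromosome 12 (chr12:26442746-26479837), differed from its neighbour in experiment 1, with log2 fold changes of 1.37 and -3.65, both past the threshold. Mx1, of the dynamin-like GTPases, had 1.87 and -4.34, and Mx2, annotated as a polymorphic pseudogene, had 2.13 and -2.93. The exonuclease Isg20 was at 0.29 (adjusted p = 0.104) and -2.57 (adjusted p = 0.0463). Samhd1, which depletes the nucleotides that viruses need for DNA synthesis, passed in neither experiment, at 0.12 (adjusted p = 0.102) and -0.54 (adjusted p = 0.324).

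Interferon-inducible GTPases attack the membranes of vacuoles that hold microbes. All 7 were higher in KO of experiment 1 and all 7 lower in KO of experiment 2, with medians of 1.31 and -3.09. Irgm1, a regulator of the IRG family, was at 82.0 and 88.8 CPM in WT and 205 and 202 in KO of experiment 1, and at 568 and 355 in WT and 132 and 100.4 in KO of experiment 2. Gbp2, a guanylate-binding protein, was at 23.5 and 20.9 CPM in WT and 55.0 and 56.2 in KO of experiment 1, and at 596 and 328 in WT and 30.6 and 19.6 in KO of experiment 2. Ifi47, an IRG GTPase, was at 27.1 and 29.1 CPM in WT and 62.7 and 71.3 in KO of experiment 1, and at 312 and 173 in WT and 43.9 and 28.2 in KO of experiment 2. In all 3 genes KO library 8 lay near the WT libraries of experiment 1, and below one or both of them for Gbp2 and Ifi47. KO of experiment 1 was above WT 2.36-fold (log2 fold change 1.24 ± 0.06 SE, adjusted p = 3.48e-06) for Irgm1, 2.48-fold (log2 fold change 1.31 ± 0.08 SE, adjusted p = 6.86e-06) for Gbp2 and 2.37-fold (log2 fold change 1.24 ± 0.08 SE, adjusted p = 1.20e-05) for Ifi47. KO of experiment 2 was below WT 3.97-fold (log2 fold change -1.99 ± 0.28 SE, adjusted p = 0.0179) for Irgm1, 18.4-fold (log2 fold change -4.20 ± 0.41 SE, adjusted p = 0.00960) for Gbp2 and 6.74-fold (log2 fold change -2.75 ± 0.38 SE, adjusted p = 0.0185) for Ifi47. Within the cluster on chromosome 3 (chr3:142493978-142638008) the 4 GBP genes ranked in experiment 2 as Gbp5 (-7.19), Gbp3 (-4.28), Gbp2 (-4.20) and Gbp7 (-3.09) by log2 fold change. In experiment 1 the same genes stood at 2.68, 1.54, 1.31 and 1.90. Igtp (Irgm3), an IRG regulator, had 0.55 and -2.17. Of the 50-base stretches of Igtp and Gbp7, 11.8% and 12.7% occur in other annotated genes, chiefly the overlapping Irgm2 and Gm43802.

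Irf7, the transcription factor that drives amplification of type I interferon, was at 62.3 and 73.4 CPM in WT and 361 and 327 in KO of experiment 1, and at 867 and 329 in WT and 237 and 128 in KO of experiment 2. WT library 4 lay beside the KO libraries of experiment 1, and KO library 7 lay well above WT libraries 1 and 2. Irf7 rose 5.03-fold (log2 fold change 2.33 ± 0.09 SE, adjusted p = 3.94e-06) in KO of experiment 1, among the larger rises of the set, and did not pass in experiment 2 (log2 fold change -1.71 ± 0.55 SE, adjusted p = 0.104). Its exons overlap those of Phrf1 on the opposite strand.

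Cxcl9 and Cxcl10, ligands of the receptor CXCR3 that attract T cells, lie side by side on chromosome 5 (chr5:92321347-92348889). Both differed more strongly between the genotypes in experiment 2 than in experiment 1. Cxcl10 was at 7.13 and 3.81 CPM in WT and 4.43 and 6.29 in KO of experiment 1, and at 1098 and 397 in WT and 1.95 and 0.911 in KO of experiment 2. No library other than WT libraries 3 and 4 exceeded 7.13 CPM. In experiment 2 Cxcl10 fell 522-fold (log2 fold change -9.03 ± 0.79 SE, adjusted p = 0.00867), the deepest fitted fall of the 51. In experiment 1 it did not differ beyond the spread (log2 fold change -0.05 ± 0.34 SE, adjusted p = 0.919), and its sign there turned with upper-quartile scaling (0.05), without WT library 1 (0.49) and without KO library 5 (0.18). Cxcl9 had 1 and 2 counts in WT and 12 and 33 counts in KO of experiment 1, and 229 and 112 counts in WT and 3 and 0 counts in KO of experiment 2. Only WT libraries 3 and 4 held more than 33 counts. Against a floor of 3 counts per library, KO was at least 7.11-fold higher in experiment 1 (adjusted p = 0.00458) and at least 65.4-fold lower in experiment 2 (adjusted p = 0.0136).

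Of the 8 other interferon-stimulated genes, 6 were higher in KO of experiment 1, 1 was lower there, and 7 were lower in KO of experiment 2, with medians of 0.96 and -1.59. Slfn5, of the Schlafen family, was at 228 and 220.5 CPM in WT and 654 and 541 in KO of experiment 1, and at 1482 and 747 in WT and 422 and 302 in KO of experiment 2. Lgals3bp, a secreted glycoprotein that binds galectin, was at 295 and 331 CPM in WT and 609 and 639.6 in KO of experiment 1, and at 999 and 594 in WT and 479.7 and 279.7 in KO of experiment 2. Tor3a, an ATPase of the torsin family, was at 155 and 161 CPM in WT and 135 and 132 in KO of experiment 1, and at 490.4 and 311 in WT and 161 and 170.0 in KO of experiment 2. Slfn5 and Lgals3bp had the common order, whereas Tor3a was slightly lower in both KO libraries of experiment 1 than in WT and stayed between 132 and 170.0 CPM in every library outside WT of experiment 2. In experiment 1 Slfn5 rose 2.64-fold (log2 fold change 1.40 ± 0.09 SE, adjusted p = 2.50e-05) and Lgals3bp 1.98-fold (log2 fold change 0.98 ± 0.08 SE, adjusted p = 2.32e-05), and Tor3a fell 1.19-fold (log2 fold change -0.25 ± 0.06 SE, adjusted p = 0.00541). The call of Tor3a was lost with upper-quartile scaling (log2 fold change -0.15, adjusted p = 0.0506) and with the spread shared by all 8 libraries (-0.24, adjusted p = 0.327). In experiment 2 Slfn5 fell 3.08-fold (log2 fold change -1.62 ± 0.38 SE, adjusted p = 0.0495) and Tor3a 2.42-fold (log2 fold change -1.28 ± 0.24 SE, adjusted p = 0.0283), and Lgals3bp did not pass (log2 fold change -1.07 ± 0.37 SE, adjusted p = 0.115). Ifi44 had log2 fold changes of 2.25 and -2.06, Rtp4, a chaperone of membrane receptors, 1.33 and -1.13, and Xaf1, a partner of the apoptosis inhibitor XIAP, 0.93 and -1.57. Ifi35 rose little in experiment 1 (0.27) and fell in experiment 2 (-1.61), and Phf11d passed only the threshold of experiment 2 (0.12, adjusted p = 0.664, and -1.89).

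The genotype difference itself was compared between the experiments by the interaction term of a fit with all 8 libraries. It passed for 49 of the 51 genes, all with a more negative difference in experiment 2, against 20.6% of all genes in that direction, 21.0% in the other and 41.6% in either. The median of the 51 was -2.93 on the log2 scale, beside -0.01 over all genes. Bst2 (-0.65, adjusted p = 0.0904) and Samhd1 (-0.68, adjusted p = 0.192) did not pass. Ifitm3 passed narrowly (adjusted p = 0.0461) and lost its call with DESeq2 (adjusted p = 0.0535), with limma-voom (0.0627) and without WT library 1, 2 or 3 or KO library 5, 6 or 8 (0.0989 to 0.153). Tor3a lost its call without WT library 1 or 2 or KO library 5 or 6 (0.0562 to 0.0674). With each library left out in turn, between 45 and 51 genes passed, against 13.0% to 21.2% of all genes in that direction. The mean genotype difference over both experiments, with experiment as an additive term, passed for none of the 51 in edgeR, against 3.41% of all genes lower, 3.72% higher and 7.12% in either direction. At an unadjusted p under 0.05 there were 2, Bst2 and Tor3a, and DESeq2 called 2 lower, below its share of 8.71% of all genes, and limma-voom 0. The median of that mean difference was -0.48, and it turned sign without KO library 7 (0.065) or KO library 8 (0.13). It was -0.026 without WT library 3 and -0.90 without WT library 1 or WT library 2. Of the calls over all genes in this fit, 52.2% were higher with TMM and 67.3% with upper-quartile scaling.

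The order of the 4 group means was the same for 43 of the 51 genes, with WT of experiment 2 highest, KO of experiment 1 next, then KO of experiment 2, and WT of experiment 1 lowest. The same order occurred in 6.49% of all genes tested. WT of experiment 2 had the highest mean for 50 of the 51 (30.4% of all genes), the exception being Ifitm3, for which KO of experiment 1 was higher. Samhd1, Usp18 and Phf11d had KO of experiment 2 in second place and WT of experiment 1 last. Bst2 and Tor3a had KO of experiment 1 last, and Cxcl9 and Cxcl10 had KO of experiment 2 last.

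**Figure D4:**
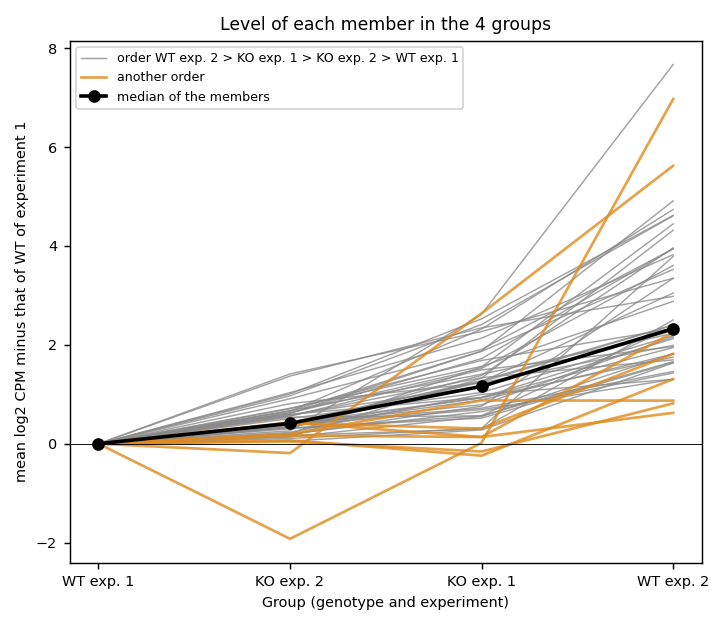
Group mean log2 CPM of each gene minus that of WT of experiment 1 (n = 2 libraries per group), with the 4 groups along the horizontal axis in the most common order. Grey lines are the 43 genes in that order, orange lines the other 8, and the black line is the median of the 51; most lines climb from left to right, with the largest step to WT of experiment 2.

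Neighbours in that order did not all differ. With 1 coefficient per group, and with neighbours taken in each gene's own order, the highest group and the next differed for 44 of the 51 genes (17.0% of all genes), the middle pair for 17 (8.14%) and the lowest pair for none (16.9%), in edgeR at an adjusted p under 0.05. These shares of all genes pool whichever groups were neighbours in each gene. For the 43 genes in the common order, the same 3 contrasts differed in 44.2%, 32.8% and 0.125% of all genes. The 0 for the lowest pair is near that last share. WT of experiment 2 was above WT of experiment 1 for 49 of the 51 genes (15.7% of all genes higher), with a median log2 difference of 2.36 and a range from 0.71 for Samhd1 to 7.77 for Gbp5. Samhd1 and Ifitm3 did not pass in that contrast. KO of experiment 2 was below KO of experiment 1 for 17 genes (15.3% of all genes lower), with a median of -0.72. These were the 4 IFIT genes, Parp9, Dhx58, Ifi203, Oas2, Oasl2, Irgm1, Ifi47, the 4 GBP genes, Cxcl9 and Rtp4. That count was 0 without KO library 6, 1 without KO library 5 or KO library 8, 20 without KO library 7, 8 without WT library 1, 6 without WT library 2, and 37 without WT library 3 or WT library 4, while the share of all genes that differed in either direction, 32.8% with all libraries, ran from 9.08% without KO library 5 to 35.9% without KO library 7. KO of experiment 2 against WT of experiment 1 gave no call in either direction among the 51 genes (0 at an adjusted p under 0.05 in edgeR). Over all genes, 0.0416% were called higher and 0.0832% lower there. At an unadjusted p under 0.05 there were 14 of the 51, against 1602 of all 14418 genes. Of the 51 differences, 49 were above 0, with a median of 0.42 beside 0.01 over all genes. Both KO libraries of experiment 2 lay above both WT libraries of experiment 1 for 36 of the 51 (21.8% of all genes). WT of experiment 2 against WT of experiment 1, and KO against KO, compare the experiments within a labelled genotype. In contrasts of a KO group with the WT group of the other experiment, experiment and genotype cannot be told apart.

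Libraries of 1 group also differed in the level of the whole set. The 51 genes took 0.410% and 0.443% of all counts in WT libraries 1 and 2, 0.916% and 0.870% in KO libraries 5 and 6, 2.60% and 1.49% in WT libraries 3 and 4, and 0.649% and 0.501% in KO libraries 7 and 8. WT library 3 was above WT library 4 for all 51 genes (51.0% of all genes), by 1.35 to 3.16 times with a median of 1.74. In the other groups the higher library exceeded the lower by a median of 1.10 times in WT of experiment 1, 1.08 in KO of experiment 1 and 1.33 in KO of experiment 2, where library 7 was the higher for 45 of the 51. Both WT libraries of experiment 2 nevertheless lay above all of the other 6 libraries for 47 of the 51 genes (19.0% of all genes). The exceptions were Ifitm3, Samhd1, Irf7 and Lgals3bp.

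Upstream of these genes, the interferons themselves were barely counted. None of 21 interferon genes passed the filter on low counts, and 16 were at 0 in all 8 libraries. Ifnb1, the interferon beta gene, had 39 and 12 counts in WT libraries 3 and 4 and at most 4 counts in any other library. Ifng, the interferon gamma gene, had at most 1 count. Of the receptors and Janus kinases, 3 of 8 tested were higher and 1 lower in KO of experiment 1, against 27.0% and 28.1% of all genes, and 4 were lower and none higher in KO of experiment 2, against 8.29% and 7.52% of all genes. Tyk2 was at 0.68 in experiment 1 and -1.36 in experiment 2 (log2 fold changes, both past the threshold), Jak2 at -0.37 and -1.59 (both past it), and Ifngr1 at 0.17 and -1.01 (only the latter). Ifnar1, a subunit of the type I receptor, passed in neither, at -0.03 and -0.46.

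Of 8 STAT and IRF factors, 6 were higher in KO of experiment 1 (27.0% of all genes), and 2 were lower and 1 higher in KO of experiment 2 (8.29% and 7.52% of all genes). Irf1, a factor that interferon gamma induces early, was at 43.5 and 47.6 CPM in WT and 98.0 and 91.7 in KO of experiment 1, and at 404 and 436 in WT and 55.1 and 44.0 in KO of experiment 2. WT libraries 3 and 4 stood above all others for Irf1, with log2 fold changes of 1.05 and -3.08, both past the threshold. Irf8, a lineage factor of macrophages, was higher in KO in both experiments (0.31 and 0.75, both past it). Stat3, which carries interleukin-6 signals, was at 0.47 (past it) and 0.42 (adjusted p = 0.150). Stat2 was higher in experiment 1 (1.30) and did not pass in experiment 2 (-1.35, adjusted p = 0.0804), and Irf9 did likewise (0.52 and -0.36). Irf3, which is activated by phosphorylation rather than by transcription, was at -0.03 and -0.05.

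**Figure D5:**
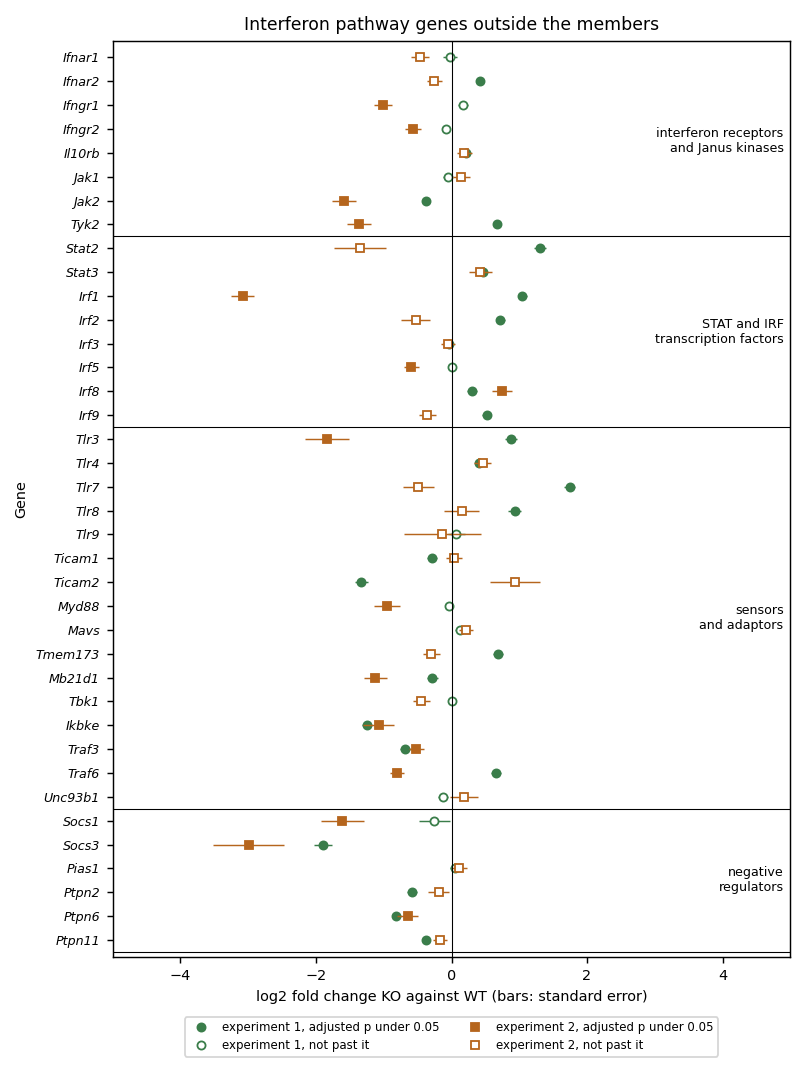
Log2 fold change of KO against WT with its standard error for 38 genes of the interferon pathway outside the set, in experiment 1 (green circles) and experiment 2 (brown squares), filled where the adjusted p was under 0.05. Irf1, Tlr3, Traf6 and Tyk2 were filled on opposite sides of 0, whereas Socs3, Ikbke, Traf3, Ptpn6, Jak2 and Mb21d1 were filled below 0 in both experiments and Irf8 above 0 in both.

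Of 16 sensors and adaptors that act before interferon is made, 6 were higher and 5 lower in KO of experiment 1, against 27.0% and 28.1% of all genes, and 6 were lower and none higher in KO of experiment 2 (8.29% and 7.52% of all genes). The RNA sensor Tlr3 (0.88 and -1.84) and the adaptor Traf6 (0.66 and -0.80) passed in opposite directions. Ikbke, a kinase that activates Irf3 (-1.25 and -1.08), Traf3 (-0.68 and -0.52) and Mb21d1, which encodes the DNA sensor cGAS (-0.28 and -1.12), were lower in KO in both. Of 6 negative regulators tested, 4 were lower in KO of experiment 1 (28.1% of all genes) and 3 in KO of experiment 2 (8.29%), with none higher in either. Socs3, an inhibitor of Janus kinases, was at -1.90 and -2.99, and the phosphatase Ptpn6 at -0.81 and -0.65, all past the threshold. All 6 had log2 fold changes of the same sign in both experiments.

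By position, 31 of the 51 genes lay in 12 clusters whose members were at most 1 Mb apart, and chromosomes 5 and 11 held 8 genes each. None lay on chromosome 15, which carries Mkl1. Read per kilobase of annotated exon, the mean level over the 8 libraries ran from 0.447 CPM per kb for Cxcl9 to 823 CPM per kb for Ifitm3, with Bst2 (208) and Lgals3bp (186) next. Genes of the set with an ISRE core in the promoter window had median log2 fold changes of 1.03 in experiment 1 and -2.17 in experiment 2. The 17 without one had 0.98 and -1.79, and the 11 without a promoter entry had 1.26 and -1.71. Of the genes not called in experiment 1, Bst2, Rsad2 and Cxcl10 had the core and Isg20, Samhd1 and Phf11d did not. Among the larger rises there, Gbp5, Ifit3 and Ifit3b had the core and Cxcl9, Ifit2, Irf7 and Ifi44 did not. A gene without the core is one with no exact match to these letters in the window, and an ISRE elsewhere was not looked for.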

How the data were processed

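BMDMs of 4 WT and 4 KO libraries were profiled by RNA-seq with a TruSeq Stranded mRNA kit. For each experiment the authors deposited a table of raw, whole-number counts by gene symbol. Per the submitters' processing notes, the tools were STAR 2.7.0f, Subread 1.6.4, featureCounts and DESeq2 1.22.1 on GRCm38. The annotation release and the strand setting of counting are not given in the sources used here. Deposited normalized counts were not used, because they were scaled within each experiment. Library totals of 33977799 to 41584540 counts limit precision only for genes near the floor of 3 counts per library, and chi-square per gene between replicates was 11.0 to 73.1, so no library was a copy.

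Both tables were joined by symbol. Genes that passed filterByExpr by genotype (14418) were tested with edgeR 4.0.16 in R 4.3.3 (TMM, robust quasi-likelihood F test, Benjamini-Hochberg adjustment, threshold 0.05), within each experiment, with an interaction term, with an additive experiment term, and with 1 coefficient per group. Standard errors were derived from the F statistic (log2 fold change over root F). A prior count of 2 entered log2 CPM. The edgeR code was tested on simulated data. Alternatives were DESeq2 1.42.0, limma-voom (limma 3.58.1), upper-quartile scaling, a minimum of 10 counts per library, no filter but 1 count in all, an adjusted p under 0.01, the spread shared by all 8 libraries, no experiment term, and each library left out. Positions came from GENCODE M21 on GRCm38. Promoter sequences came from RefSeq on GRCm38.p6. Gene values of every library were printed for the 3 members of each role group with the highest mean CPM, for members whose signs departed from the majority, and for those with the largest and smallest interaction. The members and lists were chosen with earlier results of these data known. Figures were drawn with matplotlib 3.10.9. One gene of the pathway lists is not reported here.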

Additional observations from a re-analysis of the deposited data

Results flagged for a closer look

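The genotype difference differed between the experiments for 49 of the 51 interferon-stimulated genes, by the interaction term of the edgeR fit at an adjusted p under 0.05, and in each of them KO moved downward from experiment 1 to experiment 2 relative to WT. The gene with the largest interaction in each role group is given here, leaving out Cxcl9, which was at the floor. On the log2 scale the interaction was -6.57 for Ifit3b, -3.97 for Isg15, -4.82 for Zbp1, -4.61 for Oasl1, -6.21 for Mx1, -9.88 for Gbp5, -4.05 for Irf7, -8.99 for Cxcl10 and -4.31 for Ifi44. The median of all 51 was -2.93, and the smallest was -0.65, for Bst2, which did not pass. Mkl1 itself had an interaction of -0.79, its level in KO being lower against WT in experiment 2 than in experiment 1.

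The same term passed for other lists. Among the genes of the interferon pathway outside the set it passed for 5 of 8 receptors and Janus kinases, 5 of 8 STAT and IRF factors, 8 of 16 sensors and adaptors and 1 of 6 negative regulators, Socs1. Among cell type markers it passed for 6 of 10 macrophage markers and 6 of 7 fibroblast markers tested. Over all genes it passed for 41.6%, so these counts stand against a high background.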

How the results depend on the processing

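No paired analysis was possible because the groups share no replicate numbers. Of the 51 genes, 44 were lower in KO of experiment 2, and this count was 23 with no filter beyond 1 count in total and 5 at an adjusted p under 0.01, and leaving out each library in turn gave 1 to 48, while the share of all genes called lower, 8.29% as reported, was 5.41%, 0.943%, and 0.763% to 5.78%. DESeq2 gave 48 (11.5% of all genes), limma-voom 43 (8.28%) and the spread shared by all 8 libraries 49 (16.8%). In experiment 1 the count of genes lower in KO, 1 as reported, was 0 with upper-quartile scaling, 2 with no filter, 0 with the spread shared by all 8 libraries, and 1 to 2 when each library was left out. The count of genes higher in experiment 1 stayed between 37 and 46 under every alternative run, and the share of all genes between 15.7% and 33.1%, with 46 at the highest share. DESeq2 called 2 genes lower in the mean over both experiments, where edgeR called 0 (8.71% and 3.41% of all genes), and the count without an experiment term was 0. The number of genes that differed between the KO groups, 17 as reported, ranged from 0 to 37 when each library was left out. Cxcl10 turned sign in experiment 1 with upper-quartile scaling (0.054) and ranged from -0.42 to 0.49 when each library was left out, never past the threshold. With 1 library left in an arm, that library was assumed to vary like the other arm. Over the alternatives, the member medians moved between 1.07 and 1.25 in experiment 1, between -2.24 and -1.39 in experiment 2, between -3.45 and -2.43 for the interaction, and between -0.90 and 0.13, across 0, for the mean over both experiments. The cause of these shifts was not tested. With 2 libraries per group, genes near the floor of 3 counts, such as Cxcl9 and Ifnb1, are the ones that depth limits.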
